A study of Mus musculus with 2 samples.

Results

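Malat1, Meg3, Neat1, Snhg11, Miat and Rian are long noncoding RNAs that are kept largely in the nucleus. They were chosen by gene symbol, and 5 of the 6 were rows of the deposited table of 30905 genes. Rian was not analysed here. The tissue was frozen cerebral cortex of C57BL/6 mice, wild type, untreated and on a normal diet, from which nuclei were prepared for the 10x Genomics Chromium droplet platform. Each captured RNA molecule carries a tag, a unique molecular identifier or UMI, that lets copies be counted once. There are 2 labelled samples, 1 from animals of 18 months and 1 from animals of 2 months, each pooling 3 mice. Both samples were deposited in 1 matrix, in which a barcode suffix separates library 1 from library 2. Nothing in the labels or file headers says which suffix is which age. The libraries are therefore described side by side with no age attached to either. With 1 pooled library on each side there are no replicates, and a difference between the libraries cannot be told apart from a difference in their preparation.

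The matrix held 8914 barcodes with 58108297 UMIs in library 1 and 8587 barcodes with 60547146 UMIs in library 2. Median depth was 5992 and 6450 UMIs. After filters, 8286 and 7954 nuclei were kept, and clusters named from marker genes gave 10 classes to compare, of 3 neuron and 7 non-neuronal kinds. A class name means only that the nuclei resemble that class in its marker genes. Nuclei with striatal projection neuron markers were among them, although the tissue is labelled cortex. Unnamed clusters held 8.19% and 10.9% of kept nuclei. The libraries shared 19 barcode sequences. Levels are given as CPM, the UMIs of a gene scaled to a class sum of 1000000, with 95% Poisson intervals in brackets that cover counting error only.

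A long noncoding RNA is transcribed and often spliced like a messenger RNA but acts as RNA. Malat1 gathers in nuclear speckles, the stores of splicing factors, and Neat1 is the scaffold around which paraspeckle proteins assemble. Meg3 and Rian are transcribed from the maternal copy of the imprinted Dlk1-Dio3 region, which also holds many microRNAs and small nucleolar RNAs. Miat, also known as Gomafu, forms its own spots in the nuclei of neurons. Snhg11 hosts small nucleolar RNAs in its introns and is known from neurons. Mature Malat1 and the long form of Neat1 end without a poly(A) tail, whereas the short form of Neat1 carries one.

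All positions are from GENCODE vM21 on mm10. Malat1 (ENSMUSG00000092341) lies on the minus strand of chromosome 19 from 5795690 to 5802672, and its longest annotated transcript has 1 exon of 6983 bases. Neat1 (ENSMUSG00000092274) lies 22035 bases away on the same strand, from 5824708 to 5845478, with a longest transcript of 1 exon and 20771 bases. Meg3 (ENSMUSG00000021268) is on the plus strand of chromosome 12 from 109541001 to 109571726, and its longest transcript joins 5 exons into 14548 bases. Snhg11 (ENSMUSG00000044349) is on the plus strand of chromosome 2 from 158375638 to 158386145. GENCODE classes Snhg11 as protein_coding, and the other 4 analysed genes as lincRNA. Miat (ENSMUSG00000097767) is on the minus strand of chromosome 5 from 112213228 to 112229395, with 7 exons and 9163 bases in its longest transcript. Annotated genes lie on the opposite strand of Malat1, Meg3 and Miat, and whether counting used strand is not given in the sources used here. In the table the partner of Meg3, Gm26906, had 4047 UMIs beside 762330 of Meg3, and that of Miat, Gm26953, had 885 beside 25049. The partner of Malat1, Gm37376, was not analysed here.

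The annotated 3′ ends are shown because a poly(T) primer captures RNA at a run of A. Such a run can be a poly(A) tail or lie inside the RNA. The last 30 bases are given with the poly(A) signal AATAAA, or its variant ATTAAA, in capitals.
Malat1-201: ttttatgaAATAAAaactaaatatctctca
Neat1-202 (short form): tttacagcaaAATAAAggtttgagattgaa
Neat1-201 (long form): gagaacgaacgtgagcaggaaaaagcaaaa
Meg3-209: gctttcAATAAAtttcttgttttaactaaa
Snhg11-201: gaaccacaaAATAAAcactgtcttccttaa
Miat-205: atttcaatATTAAAaccgacacacactgga
In GENCODE vM21, 23.3% of 141767 transcripts hold AATAAA in their last 30 bases and 7.10% hold ATTAAA. The long form of Neat1 holds neither in this window.

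Malat1-201 also holds a run of A before its annotated 3′ end, shown in capitals with 20 bases on each side. Whether mature Malat1 extends past this run to the annotated end was not tested.
Malat1-201, positions 6674 to 6685: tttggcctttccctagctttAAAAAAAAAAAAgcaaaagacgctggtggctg
Positions count from 1 at the 5′ end of the transcript. This run is 12 bases long and ends 298 bases before the annotated 3′ end, and it is the only run of 8 or more A in that transcript. Meg3-209 has 7 such runs, Snhg11-201 has 3, and both forms of Neat1 and Miat-205 have 0. Runs of at least 8 A occur in 13.8% of all transcripts, and runs of at least 12 in 4.07%. Which of these sites gave the counted UMIs was not tested.

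Malat1 was the most abundant RNA of both libraries by UMI count. It took 1.99% of all UMIs of library 1 and 3.62% of library 2, and it was found in 100% of barcodes of each. Among the 10 classes its CPM was lowest in inhibitory and excitatory neurons and highest in the class of pericytes with smooth muscle. This class held 44553 CPM (43513 to 45611) in library 1 and 71077 (69991 to 72175) in library 2. The inhibitory class held 16720 (16615 to 16825) and 30266 (30109 to 30423), and the excitatory class 18788 and 34526. The highest class of library 1 was thus 2.66-fold above its lowest. These are shares of the RNA captured in a nucleus, so a larger share and less of other RNA per nucleus cannot be told apart.

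The other non-neuronal classes lay between these levels. Oligodendrocytes, which make myelin, held 30179 and 59109 CPM of Malat1, fibroblasts 32300 and 52108, and astrocytes 31469 and 49613. Endothelial nuclei held 27488 and 49238. Microglia, at 24350 and 34585, and oligodendrocyte precursors, at 20523 and 34888, were closer to neurons. In library 2 neither of these classes could be told from excitatory neurons, whose interval overlapped both of theirs. Striatal projection neurons held 19872 and 38962. In library 1 the class means of the 3 neuron classes averaged 0.613 of those of the 7 non-neuronal classes, and in library 2 0.690, so Malat1 did not pass 2-fold in either.

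Meg3 and Snhg11 were both at least 2-fold higher in the neuron classes than in the non-neuronal classes, in both libraries. Of all genes tested, 5.85% in library 1 and 5.59% in library 2 were higher by that much. Meg3 was 2.65-fold higher in library 1 and 2.72-fold higher in library 2. Snhg11 was 2.06-fold and 2.19-fold higher, close to the limit. It was 1.80-fold and 1.89-fold when nuclei with high doublet scores were kept and clusters were made and named anew. With a mitochondrial limit of 1% it was 1.97-fold in library 1.

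Inhibitory neurons had the highest Meg3 level, with 11326 CPM (11240 to 11412) in library 1 and 9107 (9021 to 9194) in library 2. The excitatory class held 7558 and 5864, and the striatal class 5844 and 4363. Every non-neuronal class was below all 3 neuron classes in its own library. Microglia, the resident immune cells, were next at 4858 and 3690, then oligodendrocytes at 3443 in library 1 and pericytes with smooth muscle at 2846 in library 2. Fibroblasts, at 2319 (2177 to 2467) and 1741 (1627 to 1861), had the lowest values, but in library 1 their interval overlapped that of oligodendrocyte precursors, at 2515 (2383 to 2653). With each nucleus weighing the same, precursors were lowest in both libraries, at 2308 and 1927 beside 2417 and 1959. Meg3 UMIs were present in at least 99.3% of nuclei of every class.

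Snhg11 followed a like order. Its level in inhibitory neurons was 3960 CPM (3909 to 4011) in library 1 and 2730 (2683 to 2778) in library 2. It was 2720 and 1884 in the excitatory class, and 1918 and 1353 in the striatal class. Microglia, at 2106 and 1367, were above striatal projection neurons in library 1, and in library 2 the intervals of these classes overlapped. This order turned in both libraries when each nucleus weighed the same, with 1860.5 and 1255 CPM in microglia and 1947 and 1332 in the striatal class, and also after thinning to 1500 UMIs, with 1805 and 1290.1 beside 1969.5 and 1426. The remaining 6 classes ranged from 762 CPM in the endothelial nuclei of library 2 to 1544 in the oligodendrocytes of library 1. After that thinning, Snhg11 was seen in 99.7% and 97.2% of inhibitory nuclei and in 83.0% and 68.0% of astrocytes; before thinning these shares were 100% and 100%, and 95.7% and 88.6%.

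**Figure D1:**
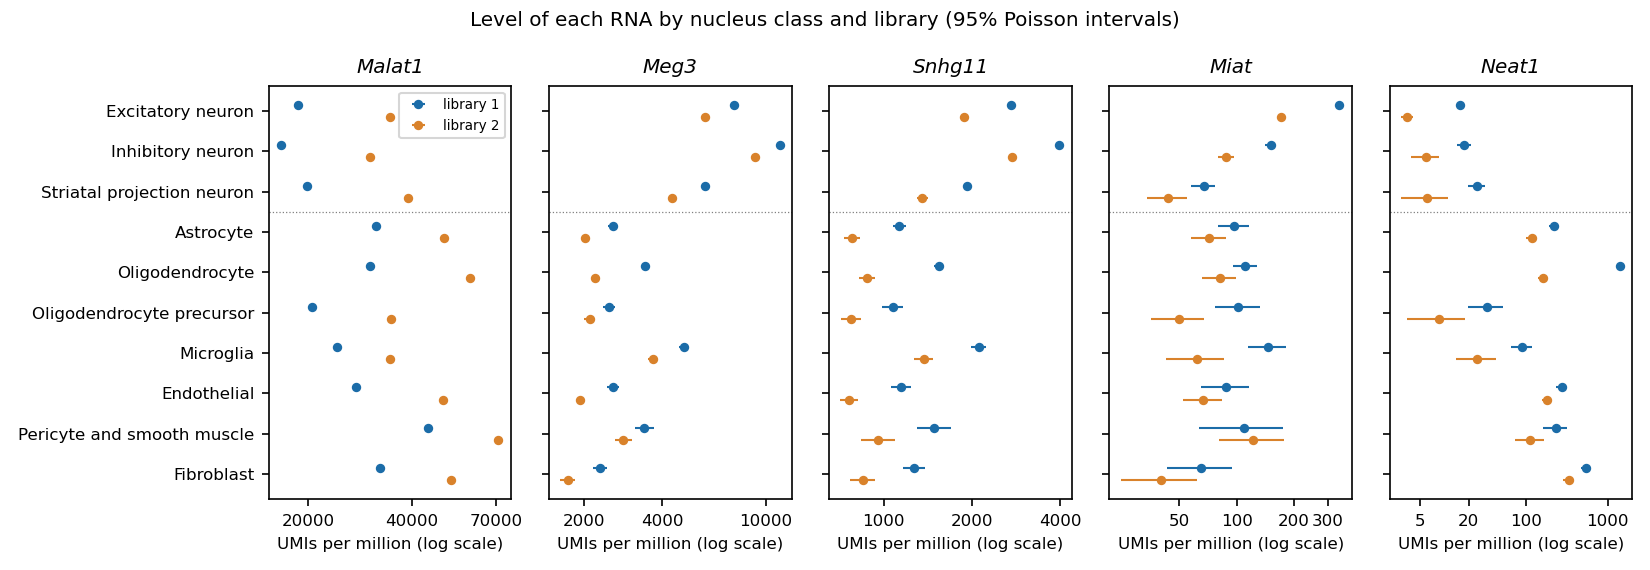
Level of each RNA in the 10 nucleus classes, in CPM on a log scale, for library 1 (blue) and library 2 (orange). Bars are 95% Poisson intervals, and the dotted line separates neurons from other classes. Meg3 and Snhg11 are highest in inhibitory neurons, Miat in excitatory neurons, and Neat1 in the oligodendrocytes of library 1, at 1393.

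Neuronal RNA was present in every non-neuronal class, and the levels above stand beside it. A set of 14 neuronal genes stood at a median of 23.2% to 54.1% of their excitatory level in these classes, with the highest medians, 54.1% and 45.1%, in microglia. Meg3 stood at 29.7% to 64.3% of its own excitatory level and Snhg11 at 39.5% to 77.4%, and both were highest in microglia too. Over classes and libraries, 6 to 13 of the 14 genes stood below Meg3. The count was 6 in oligodendrocyte precursors of both libraries, where Meg3, at 33.3% and 36.1%, was below the medians of 41.4% and 39.2%. It was 11 and 8 in fibroblasts and 12 and 13 in microglia. The part of neuronal RNA in the Meg3 and Snhg11 levels of non-neuronal classes was not tested.

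The UMI ratio of Meg3 to Snhg11, a ratio of counts and not of molecules per length, was similar among neuron classes and lower in most others. It was 2.78 (2.76 to 2.80) in excitatory neurons of library 1 and 3.11 (3.09 to 3.14) in those of library 2, and 2.86 and 3.34 in inhibitory neurons. In fibroblasts it was 1.83 (1.65 to 2.03) and 2.05 (1.82 to 2.31), and in oligodendrocytes 2.23 and 2.53. The intervals of fibroblasts and excitatory neurons did not overlap in either library.

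Neuron clusters differed more than neuron classes. Among the 13 excitatory clusters, cluster 7, with 358 and 207 nuclei and led by Dsp, Prox1 and Glis3, was far below the rest in Meg3. It held 2948 CPM (2884 to 3014) and 1938 (1883 to 1994), whereas the next lowest cluster held 6714 and 5274. Prox1 is known as a marker of dentate gyrus granule cells, and no region was assigned to this cluster here. Its Snhg11 level was also the lowest, at 982 and 417 CPM beside 2457 and 1674 in the next. Its Malat1, at 19346 and 38832, and its Miat, at 312 and 185, were inside the range of the other excitatory clusters. Over the 17 neuron clusters the Pearson correlation of Meg3 and Snhg11 was 0.958 in library 1 and 0.955 in library 2, and 0.932 and 0.940 without cluster 7. The points are clusters of 1 library that share its preparation and depth, so this is a description. Meg3 was highest in cluster 18, led by Btbd11 and Erbb4, at 12324 CPM in library 1, and in cluster 12, led by Sst, at 9755 in library 2.

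**Figure D2:**
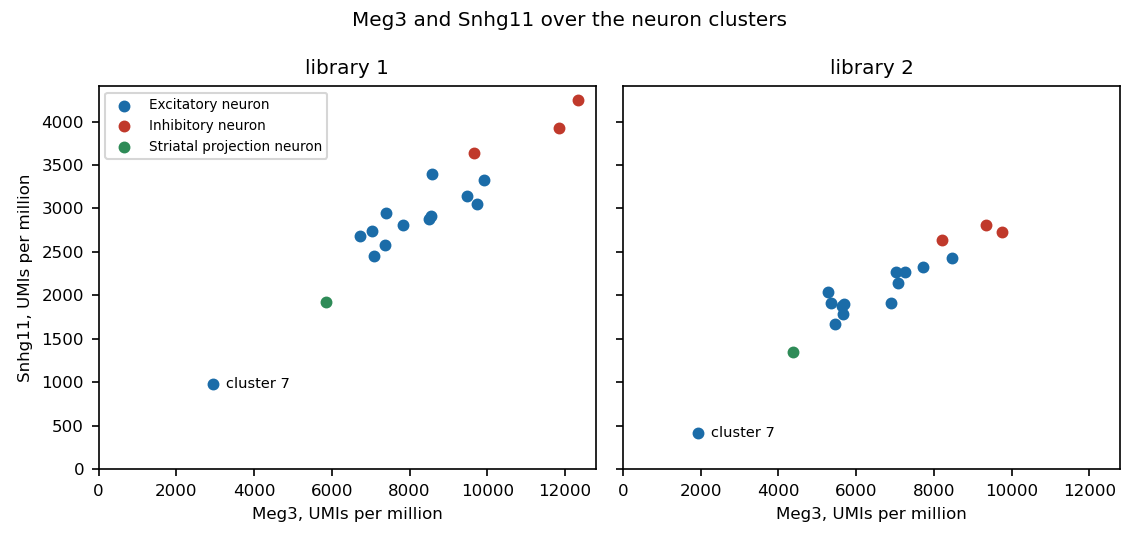
Meg3 against Snhg11 in the 17 neuron clusters, both in CPM, with 1 point per cluster and library 1 and library 2 in separate panels. The points run together from cluster 7, at 2948 and 982 in library 1, to the 3 inhibitory clusters.

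The promoter windows of Meg3 and Snhg11 are shown because these RNAs moved together over clusters. Each spans 250 bases before to 50 after the RefSeq start on GRCm38.p6, plus strand. The motifs TGACGTCA (the cyclic AMP response element) and TATAAA, a core promoter motif, were searched on both strands and are in capitals.
Meg3, chr12:109540746-109541045: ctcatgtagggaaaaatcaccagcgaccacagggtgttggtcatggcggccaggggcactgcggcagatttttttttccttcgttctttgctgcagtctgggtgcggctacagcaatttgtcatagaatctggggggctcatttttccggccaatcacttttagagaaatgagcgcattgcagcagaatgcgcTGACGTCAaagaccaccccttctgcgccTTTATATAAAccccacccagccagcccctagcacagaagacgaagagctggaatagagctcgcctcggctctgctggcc
Snhg11, chr2:158375463-158375762: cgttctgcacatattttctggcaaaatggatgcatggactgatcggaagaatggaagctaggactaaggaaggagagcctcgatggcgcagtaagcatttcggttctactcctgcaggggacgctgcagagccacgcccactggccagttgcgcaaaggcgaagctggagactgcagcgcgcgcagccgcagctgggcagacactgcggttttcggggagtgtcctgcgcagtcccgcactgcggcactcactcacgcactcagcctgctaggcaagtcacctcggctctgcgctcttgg
RefSeq gives Meg3 a further start, whose window at chr12:109545148-109545447 holds neither motif and is not shown. The Meg3 window shown holds both motifs, and TATAAA and its reverse complement TTTATA overlap there, so that 10 bases are in capitals. The Snhg11 window holds neither motif. Of 32851 promoter windows of the same length, 1.79% hold TGACGTCA and 13.6% hold TATAAA.

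Miat was most abundant in excitatory neurons. These held 345 CPM (340 to 351) in library 1 and 171 (168 to 175) in library 2. In library 1 this was above every other class, and in library 2 the interval of pericytes with smooth muscle, at 122 (81.0 to 176), overlapped it. Inhibitory neurons held 151 (141 to 161) and 87.9 (79.7 to 96.8). Striatal projection neurons held 67.0 (57.7 to 77.3) and 43.4 (33.9 to 54.8), which in library 1 lay below the interval of astrocytes, at 96.9 (79.9 to 116). The neuron classes were 1.83-fold and 1.43-fold above the non-neuronal classes and did not pass 2-fold. When UMIs were pooled over all neuron nuclei and all other nuclei, so that excitatory nuclei weighed most, the ratios were 2.92 and 2.33.

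Among inhibitory clusters Miat was lowest in cluster 18, at 76.9 CPM (66.1 to 89.0) and 48.0 (38.2 to 59.5), the cluster with the most Meg3 in library 1. It was highest in cluster 17, led by Adarb2 and Vip, at 221 and 117. Excitatory clusters ranged from 252 to 489 CPM in library 1 and from 103 to 235 in library 2, with cluster 22 highest in both. In the non-neuronal classes Miat rested on 17 to 195 UMIs a class, and most of their intervals overlapped. The 14 neuronal genes bear on these levels as well: Miat stood at 18.8% to 71.1% of its excitatory level there.

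Neat1 was the reverse of Meg3, lower in neurons than in almost every other class. The neuron classes held 0.0514 of the non-neuronal level in library 1 and 0.0455 in library 2, and 21.0% and 23.8% of all genes tested were lower by at least 2-fold. Excitatory neurons held 15.7 CPM (14.4 to 16.97) and 3.49 (2.94 to 4.11). The inhibitory class held 17.6 and 5.96, and the striatal class 25.2 and 6.12. Oligodendrocyte precursors, at 33.3 (19.8 to 52.7) and 8.66 (3.48 to 17.9), could not be told from striatal projection neurons. Fibroblasts held 543 (476 to 617) and 336 (287 to 391), endothelial nuclei 274 and 181, and astrocytes 219 and 117. Pericytes with smooth muscle held 230 and 113. With doublets kept, clusters were made and named anew. This class then held 116 and 30.2 in 56 and 63 nuclei, beside 64 and 83 nuclei before. Microglia held 88.9 (65.1 to 119) and 25.3 (13.9 to 42.5), and the first value was 139 with doublets kept. At a mitochondrial limit of 1%, 22 microglia of library 1 were left with 0 Neat1 UMIs, which allows up to 21.2 CPM.

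Oligodendrocytes of library 1 stood apart in Neat1. They held 1393 CPM (1339 to 1450, 2454 UMIs in 895 nuclei), and those of library 2 held 164 (141 to 188, 193 UMIs in 426 nuclei). In library 1 this was the highest of the 10 classes, and in library 2 it was below fibroblasts. The median nucleus had 2 Neat1 UMIs in library 1 and 0 in library 2. No UMI was seen in 132 of the 895 nuclei and in 300 of the 426, and 2 or more were seen in 64.6% and 10.6%. Thinned to 1500 UMIs per nucleus, 81.4% and 18.6% of oligodendrocytes had a Neat1 UMI, beside 2.15% and 0.425% of excitatory neurons; before thinning these were 85.3% and 29.6%, and 10.4% and 2.97%, at median depths of 1877 and 2509.5 UMIs in oligodendrocytes and 7819 and 8369 in excitatory neurons. The nuclei with the most Neat1 UMIs did not carry the level of library 1 alone, since the top 10% by that count held 28.2% of them. In library 2, where most nuclei had 0, the top 10% held 56.0%.

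**Figure D3:**
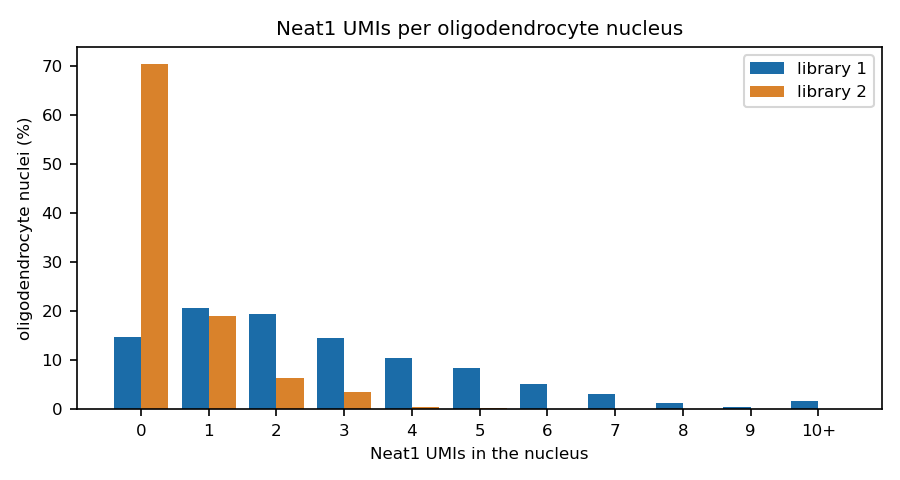
Share of oligodendrocyte nuclei, in percent, by the number of Neat1 UMIs in the nucleus, for library 1 (blue, 895 nuclei) and library 2 (orange, 426 nuclei); the last bar holds 10 or more. Most nuclei of library 2 have 0 and those of library 1 spread to 10 and more.

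At a Leiden resolution of 2 the oligodendrocyte class fell into a subcluster with 877 and 46 nuclei and another with 18 and 377. This was nearly a split by library, so subcluster and library can hardly be told apart. The first held 1406 CPM of Neat1 in library 1 and 194 (117 to 303) in library 2, and the second 988 (740 to 1292) and 161. Within each subcluster library 1 was above library 2, but the smaller sides rest on 19 Neat1 UMIs in library 2 and 53 in library 1. Whether a different mix of oligodendrocytes bears on the difference was not tested. Summed oligodendrocyte markers, Mbp, Mog, Mag, Mobp, Cnp and St18, ran the other way, at 6605 CPM in library 1 and 10073 in library 2. An unnamed cluster of 91 and 100 nuclei, led by Slc47a1 and Bnc2, held still more Neat1, 1804 CPM (1650 to 1969) and 1075 (983 to 1173).

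The libraries differed in 1 direction for Malat1 and in the other for the remaining RNAs. Malat1 was higher in library 2 in all 10 classes, from 1.42-fold (1.39 to 1.45) in microglia to 1.96-fold (1.94 to 1.98) in striatal projection neurons. Of the 3705 genes tested in all classes, 2.40% were higher in library 2 throughout. Meg3, Neat1 and Snhg11 were higher in library 1 in all 10 classes, as were 9.20% of those genes. Miat was higher in library 1 in 9, and in pericytes with smooth muscle the ratio was 0.891 (0.458 to 1.69). The median gene tested was itself higher in library 1 in each class, with log2 ratios from 0.058 to 0.21. Among tested genes the Meg3 ratio ranked from percentile 60.8 in oligodendrocyte precursors to 82.4 in oligodendrocytes. Because Malat1 takes a different share of each library, the ratios were also computed on UMIs other than those of Malat1 and the mitochondrial genes, and no ratio crossed 1.

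In excitatory neurons library 1 exceeded library 2 by 4.49-fold (3.74 to 5.42) for Neat1 and 2.01-fold (1.96 to 2.07) for Miat, both past 1.5-fold in a comparison where 14.2% of 17517 genes were. Snhg11, at 1.44, and Meg3, at 1.29, were not past it. Malat1 was lower in library 1, as were 8.52% of genes by that much. Genes were ranked by ratios with 1 CPM added to each level, which shrinks those of low genes, and on that scale Neat1 was 3.71-fold higher. There, 5 tested genes had a larger ratio, and they are named after their values were seen: Gm48530, Col6a1, Arc, Cdk9 and Npas4. Arc and Npas4 are genes induced by neuronal activity. The ratio of oligodendrocytes was 8.52 (7.36 to 9.92) for Neat1. With 1 CPM added it was 8.48, and 11 of 10490 genes exceeded that. The plain ratio was 1.76 for Snhg11, 1.55 for Meg3 and 1.36 for Miat, while Malat1 was 1.96-fold higher in library 2. Over all classes the Snhg11 ratio ranged from 1.38 to 1.76 and the Meg3 ratio from 1.19 to 1.55, a narrow span beside that of Neat1, from 1.51 in endothelial nuclei to 8.52.

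**Figure D4:**
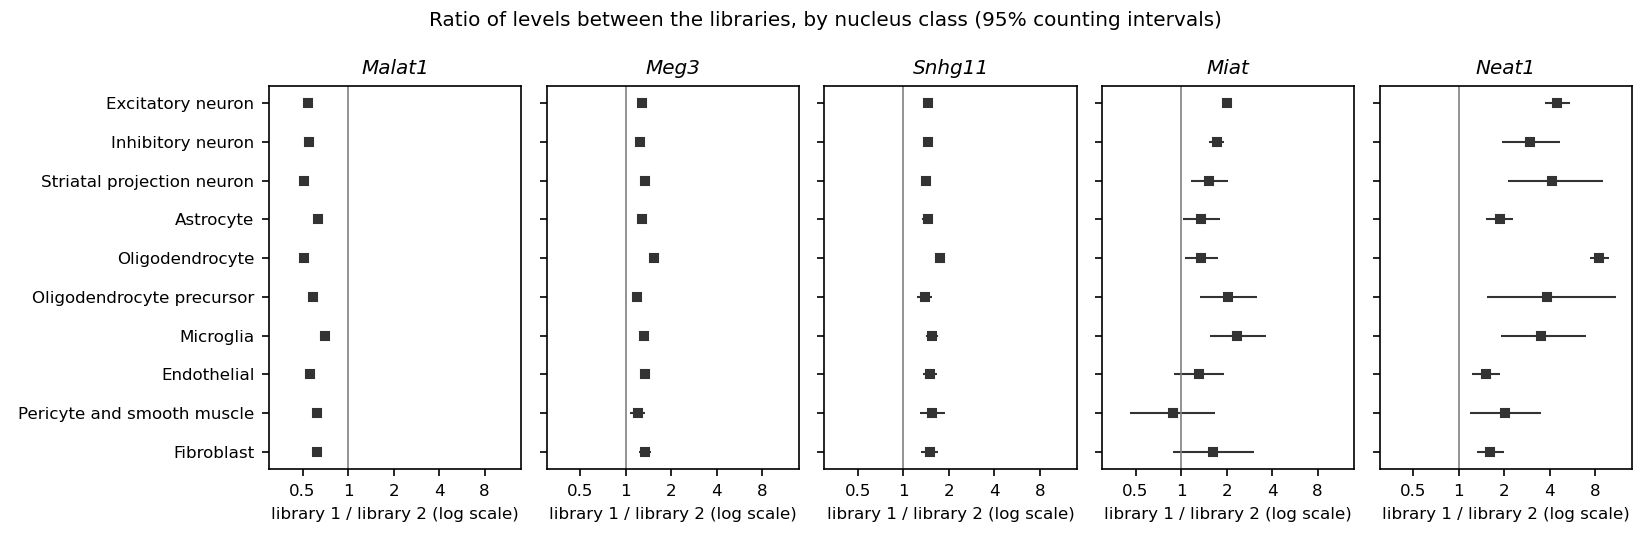
Ratio of the level in library 1 to that in library 2 in each of the 10 classes, on a log scale, for each RNA, with 95% counting intervals; the vertical line marks equal levels. All Malat1 ratios lie below 1, and the Neat1 ratio of oligodendrocytes, 8.52, lies farthest to the right.

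Oligodendrocyte RNA was found in neurons too, and the neuronal Neat1 levels are given beside it. In excitatory neurons Neat1 stood at 1.12% of its oligodendrocyte level in library 1, and the same 6 oligodendrocyte markers at 0.951% to 7.89% of theirs, with a median of 1.66%. In library 2 Neat1 stood at 2.13% and the markers at 0.806% to 10.7%, with a median of 1.48%. In library 1, 5 of the 6 markers were above Neat1, and in library 2, 2. Inhibitory neurons held 1.26% and 3.65% of the oligodendrocyte Neat1 level, beside marker medians of 1.78% and 1.98%, and 5 and 1 of the markers were above Neat1. Striatal projection neurons held 1.81% and 3.74%, beside 2.21% and 2.04%, with 3 and 1 markers above. Neat1 was thus below the marker median in all 3 neuron classes of library 1 and above it in all 3 of library 2. In astrocytes Neat1 stood at 15.7% and 71.8%, and the marker medians were 4.29% and 4.57%. The part of oligodendrocyte RNA in the neuronal Neat1 level was not tested.

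Nucleus depth moved with the shares of these RNAs, differently in neurons and in other classes. Malat1 tended to be higher in deeper nuclei. Its rank correlation with UMIs per nucleus was positive in 5 of 6 neuron and 11 of 14 non-neuronal combinations of class and library, between -0.0842 and 0.503 overall. In excitatory neurons the deepest 20% of nuclei held 1.15-fold and 1.20-fold the Malat1 level of the shallowest 20%. Meg3 correlated negatively with depth in 13 of 14 non-neuronal combinations, and Snhg11 in all 14, whereas both were positive in 5 of 6 neuronal ones. For Snhg11 some of these were close to none, at 0.00847 in excitatory and 0.0177 in inhibitory neurons of library 1. Its level in the deepest 20% was above that in the shallowest in 3 neuronal combinations and below it in 3. In endothelial nuclei the deepest 20% held 0.459 and 0.393 of the Meg3 level of the shallowest. In microglia the deepest 20% held 1.33 and 1.78 of it, and in oligodendrocyte precursors 1.21 and 1.34, but these ratios rest on the deepest bin alone. The first 4 bins of microglia of library 1 ran 4482, 3920, 4146 and 3785 CPM and the deepest 5961, and the rank correlation over these nuclei was -0.0666. In precursors the bins before the deepest fell from 2579 to 1921.5 in library 1 and lay between 1639 and 1973 in library 2, and the deepest held 3128 and 2634. Between excitatory nuclei above and at or below the median depth none of the 5 RNAs passed 1.5-fold, where 3.03% and 3.66% of genes did in either direction. These correlations are over nuclei of 1 library, and the share and the depth hold the same UMIs.

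**Figure D5:**
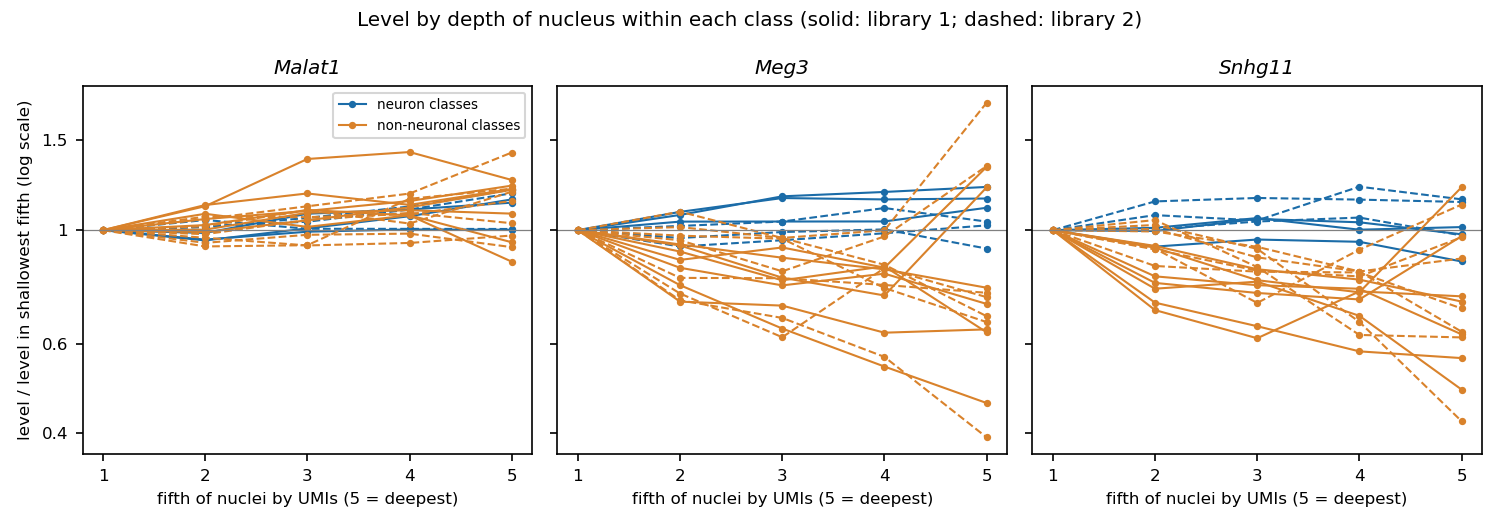
Level of Malat1, Meg3 and Snhg11 in 5 equal bins of nuclei ordered by UMIs, relative to the shallowest bin of the same class and library, on a log scale; blue lines are neuron classes, orange lines non-neuronal classes, solid library 1 and dashed library 2. Neuron lines stay near 1, and the Meg3 lines of endothelial nuclei fall to 0.459 and 0.393.

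Over nuclei, the Malat1 share and the mitochondrial share were negatively correlated by rank in all 20 combinations of class and library, from -0.474 to -0.0388. Pooled levels did not fall step by step in every class. In excitatory neurons of library 1 Malat1 went from 19580 CPM in nuclei with up to 0.5% mitochondrial UMIs to 17805 in those with 2% to 5%. In library 2 it was 35181 in the former, 33969 from 0.5% to 1%, 34061 from 1% to 2% and 34671 in the latter. Microglia of library 1 held 17821 CPM from 0.5% to 1%, in 18 nuclei, beside 25476 and 24063 in the bins above, and those of library 2 32567, in 19 nuclei, beside 35468 and 34179. Endothelial nuclei of library 2 went from 48705 in the bin from 1% to 2% to 49814 above it. In excitatory neurons Meg3 went from 8107 to 6717 and from 6122 to 4526, and Snhg11 from 2855 to 2442 and from 1991 to 1339. The nuclei with low mitochondrial shares were also deeper, with medians of 9103 and 9515 UMIs beside 7134 and 7039, so share and depth cannot be told apart here. Between nuclei over 1% and up to 0.5% none of the 5 passed 1.5-fold, where 4.38% and 5.77% of genes did.

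Barcodes left out for more than 5% mitochondrial UMIs still held these RNAs. Scaled to 1000000 UMIs that were not mitochondrial, those with 5% to 10% held 21467 Malat1 UMIs in library 1 and 45265 in library 2, and those over 20% held 23692 and 34701. Kept nuclei held 20182 and 36515 on the same scale. Meg3 was 4937 and 4133 in barcodes over 20%, beside 7466 and 5695 in kept nuclei. Neat1 was 231 and 141 in barcodes with 5% to 10%, and 247 and 185 in those with 10% to 20%. It was 44.1 and 20.8 in barcodes over 20%, on 7 and 3 UMIs, beside 87.6 and 27.1 in kept nuclei. The barcodes left out were not split by class or filtered by doublet score, so a different mix of classes cannot be told apart here.

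Genes most alike to each RNA over the 20 combinations of class and library were ranked by Pearson correlation of log2(CPM + 1) among 13490 genes. Classes of 1 library share its preparation, so these are descriptions. Meg3 was closest to Snhg11 among the 5 (0.963), and among other genes to Slc7a14 (0.953), Cers6 (0.951) and Mirg (0.946), a microRNA host of the same imprinted region. Snhg11 was closest to Clstn3 (0.940), Slc7a14 (0.921) and Mirg (0.918). Neat1 was closest to Pafah1b1 (0.935), Abhd5 (0.929) and Plin3 (0.928). Miat had weaker neighbours in Pparg (0.823), Epha10 (0.819) and Sphkap (0.817), and Malat1 in Gm26649 (0.849), AY036118 (0.841) and mt-Atp8 (0.841). Malat1 ran against Meg3 (-0.634) and Snhg11 (-0.717).

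Genes of the imprinted region were followed as a list of 6. Of these, 3 were at least 2-fold higher in neurons in each library and 0 lower, with a median log2 difference of 0.70 and 0.87 beside -0.32 and -0.44 over all genes, of which 5.85% and 5.59% were higher and 21.0% and 23.8% lower. Mirg was highest in inhibitory neurons like Meg3, at 334 and 208 CPM, and B830012L14Rik too, at 64.1 and 26.6. Rtl1, a gene transcribed from the paternal copy, differed between the libraries opposite to Meg3, with 5.60 CPM in excitatory neurons of library 1 and 30.3 in those of library 2. Begain, which flanks the region, was close between neurons and other classes, with log2 differences of 0.31 and 0.19.

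A list of proteins of paraspeckles and speckles and of other RNA-binding proteins gave 18 tested genes of 19, of which 1 was higher in neurons and 3 and 5 were lower, with median log2 differences of -0.47 and -0.65. Over all genes 5.85% and 5.59% were higher and 21.0% and 23.8% lower, and the medians were -0.32 and -0.44, so the counts of this list lay near the background. The one higher was Celf4, an RNA-binding protein of neurons, at 869 and 991 CPM in excitatory neurons and 271 and 256 in oligodendrocytes. Qk, an RNA-binding protein known from myelinating cells, was highest in oligodendrocytes, at 1802 CPM in library 1 and 3090 in library 2, so it differed between the libraries in the direction opposite to Neat1. Son, a speckle protein, stood at 294 and 243 CPM in oligodendrocytes, and Sfpq, a core protein of paraspeckles, at 256 and 210. Both differed little between the libraries beside Neat1. Of the 18 tested genes, 5 were at least 1.5-fold higher in library 1 in oligodendrocytes and 1 was lower. Over all 10490 genes tested there, 2094 were higher and 815 lower. The median log2 ratio was 0.28 for the list and 0.21 for all genes.

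Of 23 other long noncoding RNAs and small RNA hosts, 14 were tested, with 3 higher and 2 lower in neurons in each library and median log2 differences of 0.41 and 0.30. The shares over all genes were the 5.85% and 5.59% higher and 21.0% and 23.8% lower given above, with medians of -0.32 and -0.44. Kcnq1ot1, an imprinted antisense RNA, was highest in inhibitory neurons, at 712 and 800 CPM. Airn, the antisense RNA of the Igf2r locus, reached 786 and 705 CPM in the pericyte and smooth muscle class, which also led in Malat1. Gm26917 was higher in library 2 in excitatory neurons, at 137 CPM beside 55.3. C130071C03Rik was highest in inhibitory neurons in library 1, at 412 CPM, and in astrocytes in library 2, at 470.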

How the data were processed

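Both samples were measured by single-nucleus RNA sequencing. The deposited values are raw UMI counts per gene and barcode, and per the file headers they were made with Cell Ranger 3.1.0. The submitters' processing notes instead list Cell Ranger 2.0.1, beside Seurat 3.1, R 4.0.2 and the build mm10; this conflict was not settled. Annotation, intron reads, strand and the calling of nuclei: not given in the sources used here. Reading UMIs as shares of a nucleus makes each RNA depend on all others.

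Barcodes with at least 200 genes, at most 5% mitochondrial UMIs and a doublet score under 0.2 were kept. Scrublet (scanpy 1.11.5, Python 3.11.15) marked 0 and 2 barcodes by its own threshold and so had not worked, and the limit of 0.2 was set after the scores were seen. The RNAs described and the listed genes were held out of the 2000 variable genes. 30 components, 15 neighbours and Leiden resolution 1 gave 30 clusters, named from marker lists with limits set after the clusters were seen: at least 3 markers at 0.25 of their maximum, a mean of 0.33, a lead of 1.1 and 50 nuclei, with median UMIs of at least 0.4 of the overall median where no own marker led. Genes with at least 20 UMIs were counted as tested, and 1 CPM was added before log2 ratios. Classes weighed the same in neuron ratios. Shares of nuclei have exact Clopper-Pearson intervals in the tables. Nuclei were thinned to 1500 UMIs, which left out 116 of the oligodendrocytes and 54 of the microglia of library 1 as shallower. Calculations were tested on simulated data. Named genes were the 6 listed RNAs, the 4 genes of each list with the highest CPM, and the 3 most alike to each RNA among genes with at least 200 UMIs. Some listed genes are not reported here and were left out of the lists and marker sums given. The members and lists were chosen with earlier results of these data known. No test across samples was possible with 1 library per group. Per the GENCODE and RefSeq tables all 5 RNAs matched, and 4 had a promoter window.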

Additional observations from a re-analysis of the deposited data

How the results depend on the processing

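No paired analysis was possible because each age is 1 pooled library and no barcode suffix is tied to an age. Nuclei were clustered and named anew with doublets kept and under each other mitochondrial limit, so class membership could change too. The count of RNAs at least 2-fold higher in neurons, 2 in each library, was 1 in library 1 at a mitochondrial limit of 1% and 1 in both libraries with doublets kept, where Snhg11 was lost; the cause was not tested. With doublets kept, 1 RNA, Neat1, also passed 1.5-fold lower in excitatory nuclei of library 1 above the median depth, at 0.623 of the level at or below it. Other counts did not move by over 1.5 times under the mitochondrial limits, the UMI minimums of 100 and 1, equal weight per nucleus, or scaling without Malat1, except that the comparisons by mitochondrial share cannot be made at the limit of 1%, which leaves no nuclei above it. Leiden resolution 2 was run for the neuron ratios only, whose counts it did not move by over 1.5 times. Malat1 took 2.00% of UMIs of kept nuclei in library 1 and 3.62% in library 2; these were 1.94% and 3.51% at a mitochondrial limit of 1%, 2.06% and 3.79% of the UMIs other than Malat1 and mitochondrial ones, and 2.20% and 3.76% with each nucleus weighing the same. Removing the shared barcode sequences, and joining the low-UMI cluster to excitatory neurons, were tried after seeing the data, and neither moved a level by over 1.5 times. Class levels moved by over 1.5 times mainly in small classes. With doublets kept, Meg3 was 3116 CPM in astrocytes of library 2 and 3823 in precursors of library 1, and Miat was 63.3 in fibroblasts and 86.0 in precursors of library 2. Neat1 in pericytes with smooth muscle was 142 and 32.1 CPM without a mitochondrial limit, and Miat there was 55.8 in library 2 at the limit of 1%. After thinning, Neat1 was 2.89 in striatal neurons of library 2, and Miat was 12.2 in fibroblasts of library 2 and 67.8 in pericytes of library 1. Genes most alike to an RNA depend on the measure: by Spearman rank, 0 of 3 were the same for Malat1 and for Meg3, 2 for Neat1, and 1 each for Snhg11 and Miat. Low counts of Neat1 in neurons and of Miat outside neurons limit what the depth can show.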

Other observations

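Cluster 4, unnamed for its low UMIs and with 536 and 724 nuclei, held 29230 and 39475 CPM of Malat1 and 6572 and 4920 of Meg3. Its Malat1 share in library 1 was above that of every excitatory cluster, where the highest held 21371. In library 2 the highest excitatory cluster held 42198 CPM of Malat1, above cluster 4. The Meg3 level of cluster 4 was below that of every excitatory cluster except cluster 7. The lowest of those others held 6714 in library 1, where the intervals overlapped, and 5274 in library 2, where they did not.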
